A study of Rattus norvegicus with 10 samples.

Results

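The antibody heavy chain repertoire of rats immunized with HuD was divided into its most read and its rarest junctions. In each of the 5 HuD animals, the productive reads were counted per CDR3 amino acid sequence, and the 50 CDR3s with most reads were called expanded. All CDR3s with exactly 1 productive read were called single-read. This gave 250 expanded and 105100 single-read CDR3s among the 133013 CDR3s of the HuD animals (summed over animals), or among 222901 in the whole series of 10 animals. Both sides were thus chosen by their number of reads, which is therefore given as a description, without a test.

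All animals were Wistar rats, an outbred strain, and received the immunogen once in Freund's complete adjuvant followed by 3 boosts in incomplete adjuvant. The HuD group received recombinant human HuD, a neuronal RNA-binding protein that is an autoantigen in paraneoplastic neurological disease. The 5 DNP animals, which enter a few comparisons only, received keyhole limpet hemocyanin carrying dinitrophenyl groups. RNA came from a suspension of all spleen cells without sorting, with 1 library per animal, so neither the cell type nor the antigen specificity of a read is known. Immunoglobulin sequences alone do not allow a check of the labelled cell type by markers. More cells of a clone and more RNA per cell cannot be told apart in such libraries, and there was no group without immunization.

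A heavy chain variable domain is joined from a V, a D and a J gene segment. It consists of 3 loops that contact the antigen (CDR1, CDR2 and CDR3) carried by framework regions (FR1 to FR4). CDR1 and CDR2 lie within the V gene, whereas CDR3 spans the V-D-J junction and differs between almost all newly formed B cells. After contact with antigen, B cells divide and acquire somatic mutations, so that a clone grows into many related sequences.

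The CDR3s that led each library are shown with the CDR1 and CDR2 of the most frequent FR1-FR3 sequence among their reads, because the comparisons below concern these 3 loops.
HuD1, rank 1: CDR1 GFSLTRYH, CDR2 IWTGGST, CDR3 ARDAGILRY
HuD1, rank 2: CDR1 GFTFSNYD, CDR2 ITYDGTST, CDR3 ATEDYGLTGFAY
HuD1, rank 3: CDR1 GFTFSNYD, CDR2 ISYDGSTP, CDR3 TRGYYFDY
HuD2, rank 1: CDR1 GFTLSDHY, CDR2 IGNKGSIT, CDR3 ARQDNYVGFAY
HuD2, rank 2: CDR1 GFTFNRYW, CDR2 IDTDGSRT, CDR3 AVAGYGY
HuD2, rank 3: CDR1 GFTFSNYY, CDR2 ISYDGSST, CDR3 ARQNWPYYFDY
HuD3, rank 1: CDR1 GFTFNNYW, CDR2 ITNARGTT, CDR3 TRGGYFRY
HuD3, rank 2: CDR1 GFTFSDYY, CDR2 ISYDGSST, CDR3 ARSVFDY
HuD3, rank 3: CDR1 GFTFSDYY, CDR2 INYDGSST, CDR3 VRSVFDY
HuD4, rank 1: CDR1 GFTFSDYY, CDR2 ISSDGGRN, CDR3 ARHGYNSYFDY
HuD4, rank 2: CDR1 GFTFSDYG, CDR2 ISYGDSST, CDR3 ARRHYGYTDYFDY
HuD4, rank 3: CDR1 GFTFNSYD, CDR2 ISPSGGFT, CDR3 ARHWGY
HuD5, rank 1: CDR1 GFTFNYYW, CDR2 ITNASGGT, CDR3 TRGTYFRH
HuD5, rank 2: CDR1 GFTFNNYW, CDR2 ITNAAGKV, CDR3 TRGGYFRY
HuD5, rank 3: CDR1 GFTFNNYW, CDR2 ITNASGRT, CDR3 ARGGFFRY

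The HuD libraries held 156272 to 224573 productive reads each, and the DNP libraries 60647 to 259834. A read is a sequence collapsed by its molecular tag. Between 17360 CDR3s in HuD1 and 39753 in HuD2 were found, of which 74.9% to 82.4% were single-read. The expanded CDR3s were 0.126% to 0.288% of the CDR3s of an animal but took 15.7% of the productive reads in HuD2, 25.98% in HuD3, 27.3% in HuD5, 29.9% in HuD1 and 32.4% in HuD4. The single-read CDR3s together took 8.32% to 14.6% of the reads. HuD2 stood apart, with the smallest share in expanded and the largest in single-read CDR3s.

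The most read CDR3 was ARHGYNSYFDY in HuD4 with 6061 reads, or 3.29% of the productive reads of that animal (95% Wilson interval 3.21% to 3.37%). TRGGYFRY led in HuD3 with 4473 reads (2.66%, interval 2.59% to 2.74%). In HuD2 the leading ARQDNYVGFAY held only 1876 reads (0.835%, interval 0.799% to 0.874%). These intervals cover counting error only. Beyond 4096 reads, a CDR3 holds more reads than its 6 random tag bases can take forms, which was the case for 3 of the expanded CDR3s, and their read numbers also rest on the rest of the tag. This also holds in part below that number, as ARDAGILRY in HuD1 had 2480 reads but 1671 forms of these bases. Just inside the limit stood the CDR3s of rank 50, with ARGPPFDY at 432 reads in HuD1, VREDLGINY at 425 in HuD2, a CDR3 of 18 residues at 403 in HuD3, ATRDNNYAY at 494 in HuD4 and ARADIAAISADGI at 502 in HuD5. The next CDR3s held 428, 418, 401, 493 and 494 reads, so the 50 CDR3s are not set apart from those that follow.

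It was first asked whether expanded CDR3s sat in variable domains that departed more from the usual form of their V gene. No germline sequence was used here, so each read was compared with the most frequent residue of its IGHV gene in the DNP animals, whose libraries were not used to choose the CDR3s. Reads of the DNP animals, where they enter below, were compared with the usual residues of the HuD animals instead. In CDR1 and CDR2, the percent of residues that differed from the usual residue was 13.1, 13.6, 14.8, 15.1 and 17.02 in the single-read CDR3s of HuD1 to HuD5. In the expanded CDR3s it was 16.5, 16.6, 18.6, 19.0 and 20.4. Each animal thus gained between 3.03 and 3.91 percentage points, and the order of the animals was the same on both sides. The mean difference was 3.51 ± 0.335 points (SD, n = 5).

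In FR1-FR3, which form the scaffold of the domain, 4.03% ± 0.391 (SD, n = 5) of the residues differed from the usual residue in single-read CDR3s and 4.70% ± 0.501 in expanded ones. The difference was 0.713, 0.992, 0.161, 0.775 and 0.755 points in HuD1 to HuD5. It was small in HuD3 and of similar size in the other animals. When an expanded CDR3 was represented by its most frequent FR1-FR3 sequence instead of the mean of its reads, the framework difference turned to −0.17 points (exact p = 0.562), whereas that of CDR1-CDR2 was 2.64 points. The framework difference in the HuD animals therefore holds only for the average read of an expanded CDR3.

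With 5 animals, the two-sided exact sign-flip permutation test cannot give a p below 0.0625, and both differences, which had the same sign in 5 of 5 animals, gave this smallest p of 0.0625. Over all 10 animals, where the test can reach 0.00195, the framework difference was higher on the expanded side in 10 of 10 animals (exact p = 0.00195, adjusted p = 0.00326 over 15 measures). With the most frequent variant, the mean framework difference turned negative also over 10 animals. The CDR1-CDR2 difference was higher in 8 of 10 animals (exact p = 0.0117, adjusted p = 0.0176). Over 10 animals this call was lost with the most frequent variant (0.777 points, exact p = 0.352) and against single-read CDR3s of at least 2 copies (0.831 points, exact p = 0.311).

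By position within the segments as the annotation numbers them, the 5 largest side differences were in CDR2 (3 positions), CDR1 and FR3. At position 9 of CDR2, 48.0% ± 2.88 (SD, n = 5) of expanded but 36.7% ± 4.61 of single-read CDR3s carried another than the usual residue. At position 10 of CDR1 these values were 17.8% ± 9.80 and 9.21% ± 3.07, and at position 8 of CDR2 25.5% ± 5.54 and 18.5% ± 2.33. Position 17 of FR3 gave 11.7% ± 3.77 and 5.52% ± 2.08. All these were higher in expanded CDR3s in 5 of 5 animals. Position 2 of CDR2, with 21.0% ± 6.57 and 15.2% ± 1.99, was higher in 4 of 5.

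**Figure D1:**
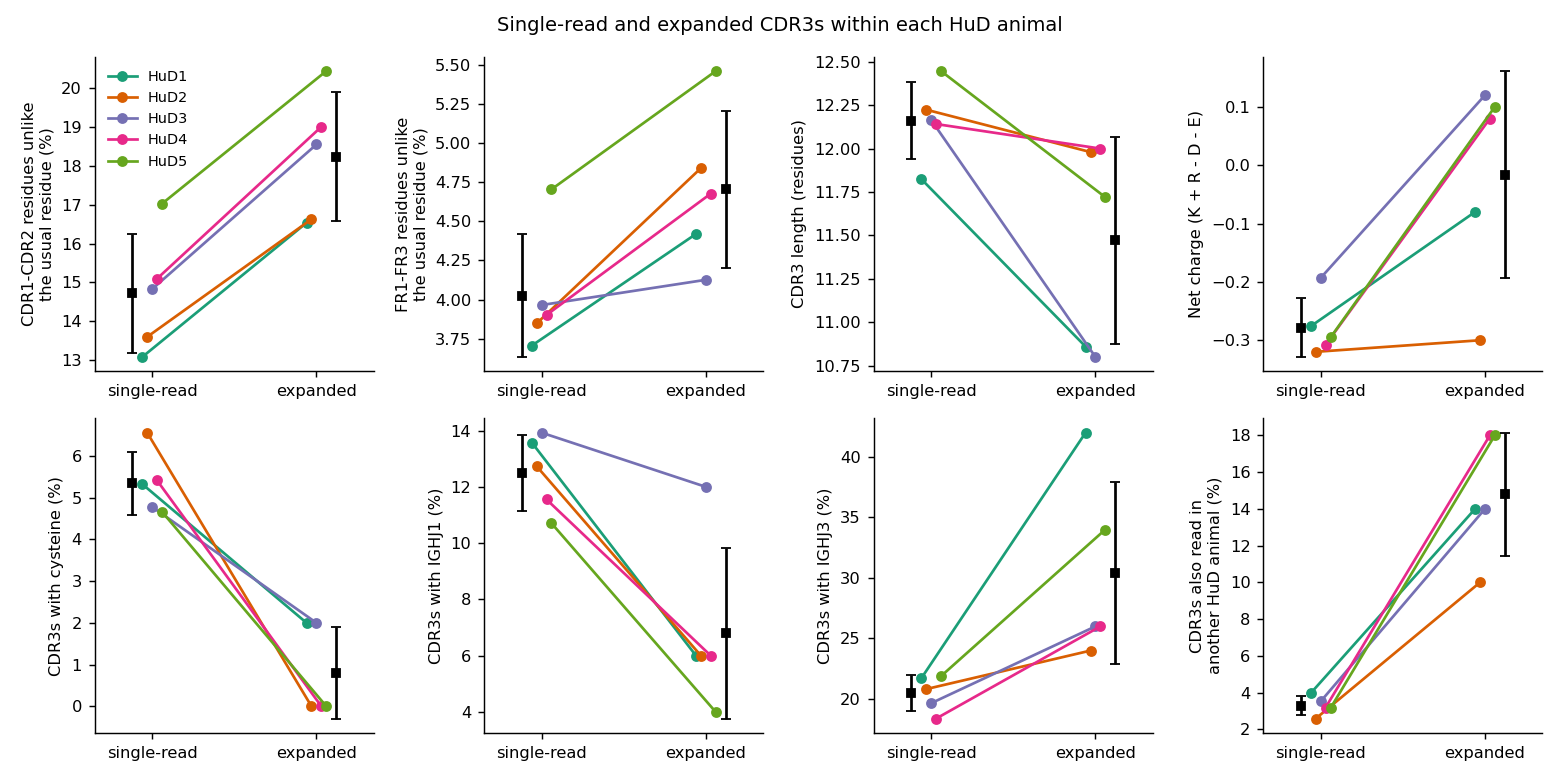
Single-read and expanded CDR3s within each of the 5 HuD animals (coloured lines), with the mean and SD of each side in black. The y axes give the percent of CDR1-CDR2 and FR1-FR3 residues unlike the usual residue, CDR3 length, net charge, and the percent of CDR3s with cysteine, with IGHJ1, with IGHJ3 and read in another HuD animal. In each panel all 5 lines run in the same direction, with net charge nearly flat in HuD2, and the CDR1-CDR2 lines are almost parallel.

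In the reads, an expanded CDR3 was not joined to a single framework. Of the 250, 0 were found with reads of only 1 IGHV gene in the annotation, and the number of distinct FR1-FR3 amino acid sequences ranged from 74 for TVGFIGYIYPFAY in HuD1 (466 reads) to 2938 for ARRHYGYTDYFDY in HuD4 (5742 reads), with a median of 449. The CDR3s with most variants in the other animals were ARDAGILRY in HuD1 with 718, ARQDNYVGFAY in HuD2 with 1251, TRGGYFRY in HuD3 with 1696 and TRGTYFRH in HuD5 with 1577. In 100 reads drawn from each CDR3, to remove the effect of read number, the mean number of variants was 43.4 in HuD1, 75.4 in HuD2, 67.8 in HuD3, 77.4 in HuD4 and 80.8 in HuD5. HuD1 stood lowest, and there the most frequent variant took 32.6% of the reads of an expanded CDR3 on average, against 10.4% to 18.2% in the other animals.

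The assigned IGHV gene held 86.1% of the reads of an expanded CDR3 in HuD1 on average, and 56.5% to 67.0% in the others. A CDR3 was read with 4 to 46 IGHV genes, but with means of 4.50 to 10.7 per animal when a gene had to hold at least 1% of the reads. Of the reads of expanded CDR3s, 11.2% to 21.5% named several IGHV genes as equally good, so part of these genes are alternative names for similar sequences. On average 67.1% of the reads of expanded CDR3s rested on 1 sequenced copy. How many of the variants and genes are errors of amplification or sequencing was not tested. A single-read CDR3 has 1 variant by definition, so no test between the sides applies.

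Relative to the most frequent variant of the same CDR3, its reads differed at a larger share of loop than of framework residues. On average 17.5% ± 5.17 (SD over animal means, n = 5) of CDR1-CDR2 residues and 4.81% ± 1.36 of FR1-FR3 residues were unlike those of the main variant. These values cover all reads, including those of the main variant and those assigned to other IGHV genes, so differences between IGHV genes are part of them. The loop value was the higher one in 249 of 250 expanded CDR3s, the exception being AWDV in HuD3 with 1.10% and 1.62%.

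**Figure D2:**
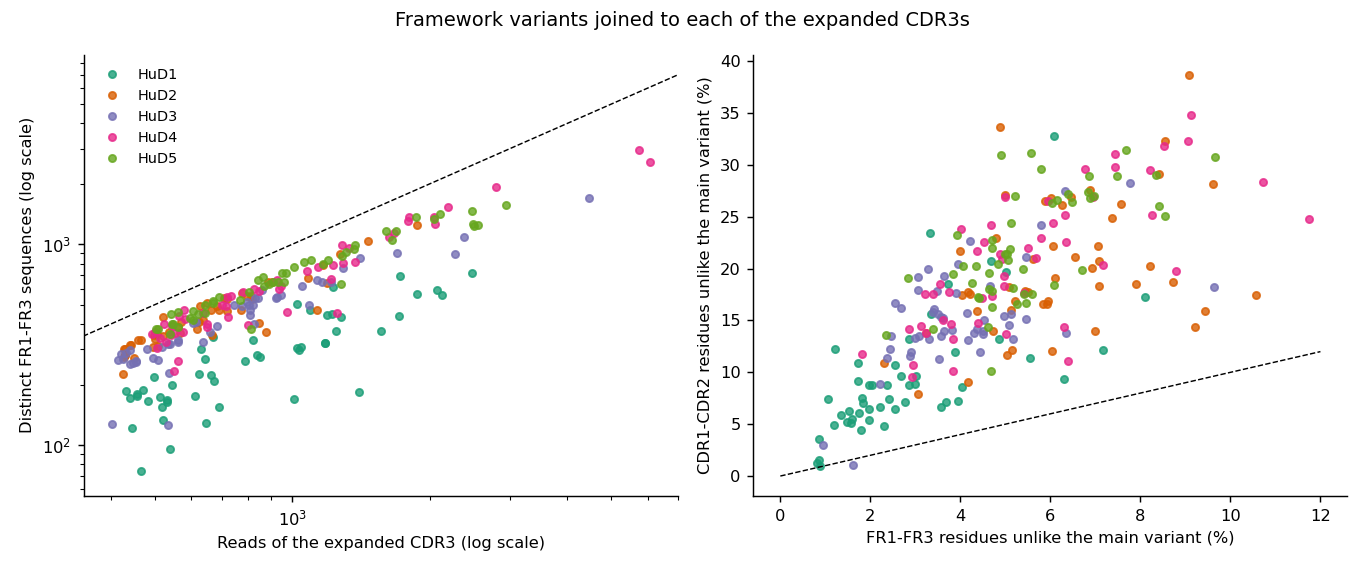
Each point is 1 of the 250 expanded CDR3s, coloured by animal. Left, distinct FR1-FR3 sequences against reads, both on log scales, with a dashed line where every read would be a different sequence; right, percent of CDR1-CDR2 against FR1-FR3 residues unlike the main variant, with a dashed line of equality. The points of HuD1 lie lowest on the left, and 249 of 250 points lie above the line on the right.

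The junctions themselves also differed. The mean CDR3 length of single-read and expanded CDR3s was 11.8 and 10.9 residues in HuD1, 12.2 and 11.98 in HuD2, 12.2 and 10.8 in HuD3, 12.1 and 12 in HuD4, and 12.4 and 11.7 in HuD5. Expanded CDR3s were shorter in 5 of 5 animals, by 0.688 ± 0.508 residues (SD, n = 5; exact p = 0.0625, the smallest possible). The difference was within 0.25 residues in HuD2 and HuD4. It was 1.14 residues with the 20 most read CDR3s and 0.354 with the 200 most read. Over all 10 animals, expanded CDR3s were shorter in 10 of 10 (exact p = 0.00195, adjusted p = 0.00326).

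Net charge, counted as lysine and arginine minus aspartate and glutamate, was −0.278 ± 0.0503 (SD, n = 5) in single-read and −0.016 ± 0.177 in expanded CDR3s. It was higher in expanded CDR3s by 0.196 in HuD1, 0.0198 in HuD2, 0.313 in HuD3, 0.388 in HuD4 and 0.395 in HuD5 (exact p = 0.0625, adjusted p = 0.0938 over charge, hydropathy and cysteine). HuD2 showed almost no difference. Mean hydropathy on the Kyte-Doolittle scale was −0.744 ± 0.156 in expanded and −0.779 ± 0.0337 in single-read CDR3s, with 3 animals higher and 2 lower (exact p = 0.625).

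Cysteine, which can form disulfide bonds, was rare in expanded CDR3s. Only SCDGYY in HuD1 and ARPCSRRYVMDA in HuD3 contained it, or 2 of 250 (0.8%). Per animal, this was 0% to 2% of the expanded and 4.67% to 6.56% of the single-read CDR3s. In HuD2, HuD4 and HuD5, 0 of 50 expanded CDR3s held a cysteine, which allows a share of up to 6%. The difference was −4.55 ± 1.54 percentage points (SD, n = 5; exact p = 0.0625, adjusted p = 0.0938) and was present in 5 of 5 HuD animals and in 10 of 10 animals of the series (exact p = 0.00195, adjusted p = 0.00326). It was −3.05 points against single-read CDR3s whose read had 1 sequenced copy and −12.6 points against those with at least 2 copies.

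Of the 20 residues, 0 (0%) were called more frequent and 0 (0%) less frequent in expanded CDR3s by limma at an adjusted p under 0.05. At an unadjusted p under 0.05 stood tryptophan, at 0.64 ± 0.20 points (SE) more, and aspartate and glutamate, at 1.28 ± 0.42 and 0.78 ± 0.24 points less, each with an adjusted p of 0.152. These 3 residues were chosen after their values were seen. With the 200 most read CDR3s, proline passed as more and aspartate and glutamate as less frequent.

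By residue group, acidic residues (D and E) made up 10.3% ± 1.54 (SD, n = 5) of expanded and 12.4% ± 0.362 of single-read CDR3s and were lower in 4 of 5 animals. Basic residues (K, R and H) made up 12.9% ± 0.881 and 12.6% ± 0.286, aromatic residues (F, W and Y) 27.1% ± 2.39 and 26.3% ± 0.108, and aliphatic residues (A, V, I, L and M) 19.8% ± 1.33 and 20.03% ± 0.510. Polar residues (G, S, T, N and Q) differed by 0.677 ± 2.17 points. Proline made up 3.75% ± 1.14 of expanded and 2.88% ± 0.0798 of single-read CDR3s, and was higher in 4 of 5 animals. Apart from the acidic group, each of these differences was smaller than the SD of its expanded values.

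The J segment encodes the end of CDR3 and FR4. IGHJ3 was named for 42%, 24%, 26%, 26% and 34% of the expanded CDR3s of HuD1 to HuD5, but for 21.7%, 20.8%, 19.7%, 18.4% and 21.9% of the single-read ones. It was thus higher in 5 of 5 animals, by 9.91 ± 6.63 points (SD, n = 5). IGHJ1 was lower in 5 of 5, with 6.8% ± 3.03 of expanded and 12.5% ± 1.36 of single-read CDR3s. Both gave an exact p of 0.0625 (adjusted p = 0.125 over the 4 IGHJ genes). IGHJ2, the most used segment, stood at 52.8% ± 7.82 and 51.3% ± 3.00, with 3 animals higher and 2 lower (exact p = 0.75). IGHJ4 stood at 10% ± 8.72 and 15.8% ± 2.13 and was lower in 4 of 5 animals, but higher in HuD4, where 24% of the expanded CDR3s used it (exact p = 0.25). Over all 10 animals IGHJ3 was higher in 10 of 10 (exact p = 0.00195, adjusted p = 0.00326) and IGHJ4 lower in 9 of 10 (exact p = 0.0137, adjusted p = 0.0186), whereas IGHJ1 was lower in 7 of 10 (exact p = 0.113).

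The V segment sets FR1 to FR3 with CDR1 and CDR2. Each CDR3 was counted once, under the IGHV gene of most of its reads. The IGHV5 subgroup held 184 of the 250 expanded CDR3s, or 73.6% ± 13.1 per animal (SD, n = 5), against 77.7% ± 3.89 of single-read CDR3s. IGHV2 held 14.8% ± 14.04 and 12.9% ± 3.22, IGHV3 8% ± 6.78 and 5.03% ± 1.53, and IGHV4 2.4% ± 3.58 and 1.76% ± 0.420. IGHV1, IGHV6 and IGHV10 gave 1 expanded CDR3 each, at 1.12%, 0.942% and 0.280% of single-read CDR3s. The expanded side ranged from 60% to 92% for IGHV5 and from 2% to 38% for IGHV2, so the animals differed among themselves by more than the sides did.

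Of 88 IGHV genes tested with edgeR, 0 (0%) were called more frequent and 0 (0%) less frequent in expanded CDR3s. This held in each of the subgroups tested, with 23 genes of IGHV5, 35 of IGHV2, 12 of IGHV1, 5 of IGHV6, 4 of IGHV8, 3 of IGHV3, 3 of IGHV10, 2 of IGHV7 and 1 of IGHV4. At an unadjusted p under 0.05 edgeR listed 4 genes as more and 3 as less frequent. DESeq2 called 0 genes, with 3 at an unadjusted p under 0.05.

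The genes with most expanded CDR3s were IGHV5-25 with 35, IGHV5-29 with 32 and IGHV5-31 with 27. They made up 14% ± 8.72, 12.8% ± 7.16 and 10.8% ± 3.63 of expanded CDR3s (SD, n = 5) and 13.7% ± 4.22, 12.3% ± 3.47 and 9.42% ± 2.11 of single-read ones, so the sides differed by less than the spread between animals. IGHV5-22 (14 expanded CDR3s), IGHV5S13 (13) and IGHV5-7 (11) also lay within it, with log2 fold changes of 0.06 ± 0.44, 0.16 ± 0.45 and −0.61 ± 0.47 (SE). IGHV5-20 held 10 expanded CDR3s, 4% ± 2.83 against 9.05% ± 1.57, and was lower in 5 of 5 animals (log2 fold change −1.18 ± 0.48, edgeR adjusted p = 0.439). IGHV5-27, with 2, 2, 3, 2 and 1 expanded CDR3s in HuD1 to HuD5, made up 4% ± 1.41 against 1.74% ± 0.393 of CDR3s and was higher in 5 of 5 animals (log2 fold change 1.20 ± 0.54, edgeR adjusted p = 0.440). With TMM scaling, which shifted the median log2 fold change by −0.14 over all 88 genes and by −0.74 over the 37 with an expanded CDR3, IGHV5-20 passed as less frequent, and IGHV5-25, IGHV5-29, IGHV5-31, IGHV5-22 and IGHV5S13 turned to negative values.

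IGHV3-3 and IGHV2-13 were uneven between animals. IGHV3-3 was assigned to 2, 7, 0, 4 and 0 expanded CDR3s of HuD1 to HuD5 (log2 fold change 1.31 ± 0.48, edgeR adjusted p = 0.296), and 4 of the 7 in HuD2 were related sequences (ARSDGVHYYLPFAD, ARSEGTHYYLPFAD, ARSDGTHYYLPFAD and ARSEGVHYYLPFAD). Without HuD5, IGHV3-3 passed the threshold as the only gene. IGHV2-13 was assigned to 1 expanded CDR3 in HuD4 and 9 in HuD5 (log2 fold change 1.58 ± 0.56, edgeR adjusted p = 0.296), of which 6 formed the family of ARADIAAISTDGI. Its values thus rested on HuD5, and without that animal its log2 fold change was −0.09. IGHV2-30 and IGHV2-47 had 0 of 250 expanded CDR3s, against 1.04% and 1.03% of single-read CDR3s. If the 250 are counted as independent, which related sequences are not, 0 allows a share of up to 1.2%. The single-read shares of these genes lie under that limit. Both were among the 3 genes less frequent at an unadjusted p under 0.05 and did not pass adjustment (edgeR adjusted p = 0.440 each). These 2 genes were chosen after their values were seen.

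Of 33 IGHD genes tested with edgeR, 0 (0%) were called in either direction. At an unadjusted p under 0.05 stood 2 genes less frequent in expanded CDR3s, and DESeq2 also called 0, with 1 at an unadjusted p under 0.05.

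**Figure D3:**
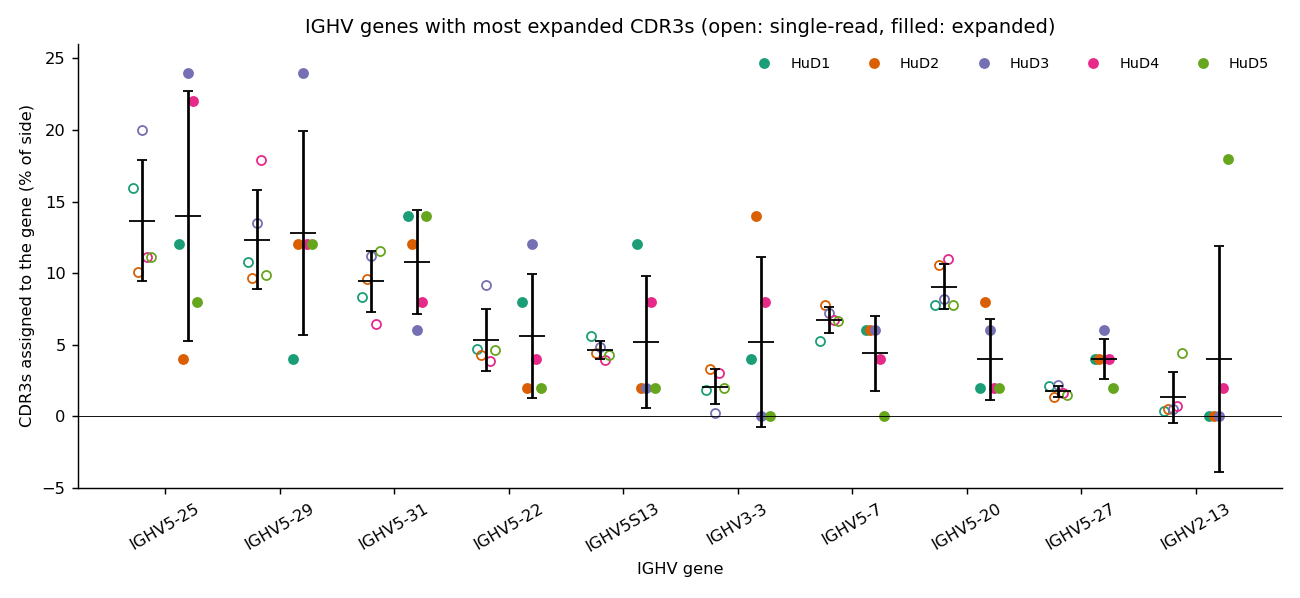
Percent of single-read (open points) and expanded (filled points) CDR3s assigned to each of the 10 IGHV genes with most expanded CDR3s, by HuD animal (colours), with mean and SD in black. IGHV5-20 lies lower and IGHV5-27 higher on the expanded side in 5 of 5 animals, and the IGHV2-13 point of HuD5 stands alone at 18%.

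Many expanded CDR3s were close relatives of each other. Among the 246 distinct expanded sequences, 62 had another of the same length that differed by 1 residue, in 42 pairs and 24 families. Of these pairs, 37 lay within 1 animal and 5 joined different animals. The family of ARADIAAISTDGI in HuD5 had 6 members and 5055 reads, all assigned to IGHV2-13. Counted from 1 at the first residue of the CDR3, its members differed by A10T, A7S, A6S, I5V or S9Y along the chain of pairs. ARSDGVHYYLPFAD and its 3 relatives in HuD2 (IGHV3-3, 3472 reads) and ARQDTSGYSNWFAY with 3 relatives in HuD4 (3252 reads) were the next in number of members.

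IGHV5-31 carried a set of short, positively charged CDR3s in 3 animals, which are set under each other here because related sequences led 2 of the libraries.
HuD2, rank 5: TRGGFYRY
HuD3, rank 1 and HuD5, rank 2: TRGGYFRY
HuD3, rank 46 and HuD5, rank 33: TRGGYYRY
HuD5, rank 1: TRGTYFRH
HuD5, rank 3: ARGGFFRY
HuD5, rank 6: TRGTYYRH
HuD5, rank 28: ARGTYFRH
TRGTYFRH held 2940, TRGGYFRY 2545, ARGGFFRY 2494, TRGTYYRH 2105, ARGTYFRH 867 and TRGGYYRY 767 reads in HuD5. TRGGFYRY held 1169 reads in HuD2. They account for all 9 entries among the expanded IGHV5-31 CDR3s with a net charge of 2. The set was put together after its sequences were seen and carries no test.

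Single-read CDR3s were also found around expanded ones. In each animal 1.73% to 3.94% of the single-read CDR3s had the length of, and 1 residue different from, an expanded CDR3 of the same animal. With the expanded CDR3s of the 4 other HuD animals, this share was 0.0702% to 0.125%. The own share was higher in 5 of 5 animals, by 2.73 ± 0.788 points (SD, n = 5), and in 10 of 10 animals of the series. A mutated or misread copy of an expanded CDR3 falls in its own library, so this direction was largely given beforehand. The shares are therefore a description, and no weight is put on a test of them.

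An expanded CDR3 had a mean of 11.2 such neighbours, from 1 to 29, and 0 of 250 had none. The CDR3s with most were TRHGGLRNWFAY in HuD1 with 21, ARSDGTHYYLPFIY in HuD2 with 29, AKVTYYGYYYFDY in HuD3 with 22, a CDR3 of 19 residues in HuD4 with 25 and VRQGYLRDWYFDF in HuD5 with 21. In HuD1 and HuD5, 1 further CDR3 each had the same number. None of these was the most read CDR3 of its animal, and AKVTYYGYYYFDY had rank 49 of 50. Whether a neighbour is a mutated relative or an error of amplification or sequencing was not tested.

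Reads of the other animals did not enter the choice of the sides, which allows sharing to be compared. The authors describe the animals as littermates that can have responses to other antigens in common. A CDR3 expanded in 2 animals counts for both, so the values of the animals are not fully independent. Of the expanded CDR3s, 14%, 10%, 14%, 18% and 18% were also read in another HuD animal for HuD1 to HuD5. Of the single-read CDR3s it was 3.97%, 2.59%, 3.52%, 3.19% and 3.16%. The difference was 11.5 ± 3.24 points (SD, n = 5; exact p = 0.0625) and was present in 5 of 5 animals. It was 17.7 points with the 20 most read CDR3s and 7.71 with the 200 most read. When each expanded CDR3 was compared with single-read CDR3s of its own length, 10.3 points remained. In the DNP animals, 4%, 4%, 10%, 8% and 20% of the expanded CDR3s of HuD1 to HuD5 were read, against 1.86% to 2.87% of the single-read ones (difference 6.88 ± 6.68 points, exact p = 0.0625). Requiring at least 2 reads in the other animal left 9.16 points for HuD animals and 2.76 for DNP animals.

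In all, 37 of 250 expanded CDR3s were read in another HuD animal, 23 in a DNP animal, 13 in both and 203 in neither. Of the 37, 11 had at most 1 read in any other HuD animal. Of the 23, 14 had at most 1 read in any DNP animal, and the highest number was 20 reads. ASRDY, a junction of 5 residues, was the only one read in all 5 HuD animals, with 408, 431, 3, 74 and 3 reads in HuD1 to HuD5, and in none of the DNP animals. It was chosen after its values were seen.

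Among the expanded CDR3s of 2 HuD animals at once were 4 sequences. ARRHYGYTDYFDY held 5742 reads in HuD4 and 1283 in HuD5, with 181 more in HuD1. TRGGYFRY held 4473 in HuD3 and 2545 in HuD5, with 118 in HuD4. ARRYDFDY held 652 in HuD2 and 1329 in HuD4, and TRGGYYRY held 432 in HuD3 and 767 in HuD5. The most frequent CDR1 and CDR2 of these are shown, as CDR2 differed between the 2 animals in each of the 4, and CDR1 only for ARRHYGYTDYFDY.
ARRHYGYTDYFDY in HuD4: CDR1 GFTFSDYG, CDR2 ISYGDSST
ARRHYGYTDYFDY in HuD5: CDR1 GFTFSHYG, CDR2 LSYDGHTT
TRGGYFRY in HuD3: CDR1 GFTFNNYW, CDR2 ITNARGTT
TRGGYFRY in HuD5: CDR1 GFTFNNYW, CDR2 ITNAAGKV
ARRYDFDY in HuD2: CDR1 GFTFSDYY, CDR2 ISYDGLGT
ARRYDFDY in HuD4: CDR1 GFTFSDYY, CDR2 ISYDGLNT
TRGGYYRY in HuD3: CDR1 GFTFNNYW, CDR2 ITNTGRNT
TRGGYYRY in HuD5: CDR1 GFTFNNYW, CDR2 ITNTGGSI
The assigned IGHV gene was the same in both animals for each of the 4, IGHV5-29 for ARRHYGYTDYFDY and ARRYDFDY and IGHV5-31 for TRGGYFRY and TRGGYYRY. Over the 96 residues compared in FR1-FR3, the main variants of the 2 animals differed at 11 for ARRHYGYTDYFDY, 9 for TRGGYFRY, 6 for TRGGYYRY and 3 for ARRYDFDY. Among all FR1-FR3 variants, 21 of ARRYDFDY were found in both animals (6.13% of its reads in HuD2 and 7.15% in HuD4), 10 of ARRHYGYTDYFDY, 1 of TRGGYFRY and 0 of TRGGYYRY. The tag includes 10 bases of the CDR3, and the most frequent of these sections was not the same in both animals for any of the 4. It held 36.5% to 89.0% of the reads, and 3 to 9 sections per CDR3 and animal held at least 1% each, so only the leading section was compared.

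Because all libraries were sequenced together, tags found with the same CDR3 in 2 libraries were counted. For the 4 shared CDR3s these were 0 of 1283 tags of ARRHYGYTDYFDY in HuD5, 4 of 2545 of TRGGYFRY in HuD5, 2 of 652 of ARRYDFDY in HuD2 and 0 of 432 of TRGGYYRY in HuD3. Over all expanded CDR3s of the HuD animals, 159 of 242026 pairs of CDR3 and tag were seen in another library, and for single-read CDR3s 15 of 105100. The 159 pairs fell on 26 expanded CDR3s, summed over animals. In the DNP animals the pairs seen in another library were 1731 of 186972, on 67 expanded CDR3s, and 51 of 66502. How much of the sharing between animals rests on such pairs was not tested.

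The read number itself was then divided into finer classes, as a description. The percent of CDR1-CDR2 residues unlike the usual residue was 14.7 ± 1.53 (SD, n = 5) for CDR3s with 1 read, 16.3 ± 1.36 with 2, 16.6 ± 1.20 with 3 to 9, 17.1 ± 1.24 with 10 to 99, 17.8 ± 1.09 with 100 and more outside the expanded, and 18.2 ± 1.66 in the expanded. The FR1-FR3 value was 4.03 with 1 read, highest at 5.10 with 3 to 9 reads, and 4.70 in the expanded. Cysteine was present in 5.35% of CDR3s with 1 read, 3.61% with 2, 2.41% with 3 to 9, 2.09% with 10 to 99, 2.09% with 100 and more and 0.8% of the expanded. The IGHJ1 share along the same classes was 12.5%, 10.1%, 8.87%, 7.76%, 7.51% and 6.8%. CDR3 length had no such order, with 12.2, 11.8, 12.1, 12.3, 11.96 and 11.5 residues. The share read in another HuD animal was 3.29% with 1 read, 9% with 2, 8.68% with 3 to 9, 6.55% with 10 to 99, 9.14% with 100 and more and 14.8% in the expanded. The largest step lay between 1 and 2 reads for the CDR1-CDR2 value, the framework value, cysteine, IGHJ1 and sharing. For sharing, the step to the expanded was of similar size. A large part of these differences thus sets CDR3s with 1 read apart from all others.

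**Figure D4:**
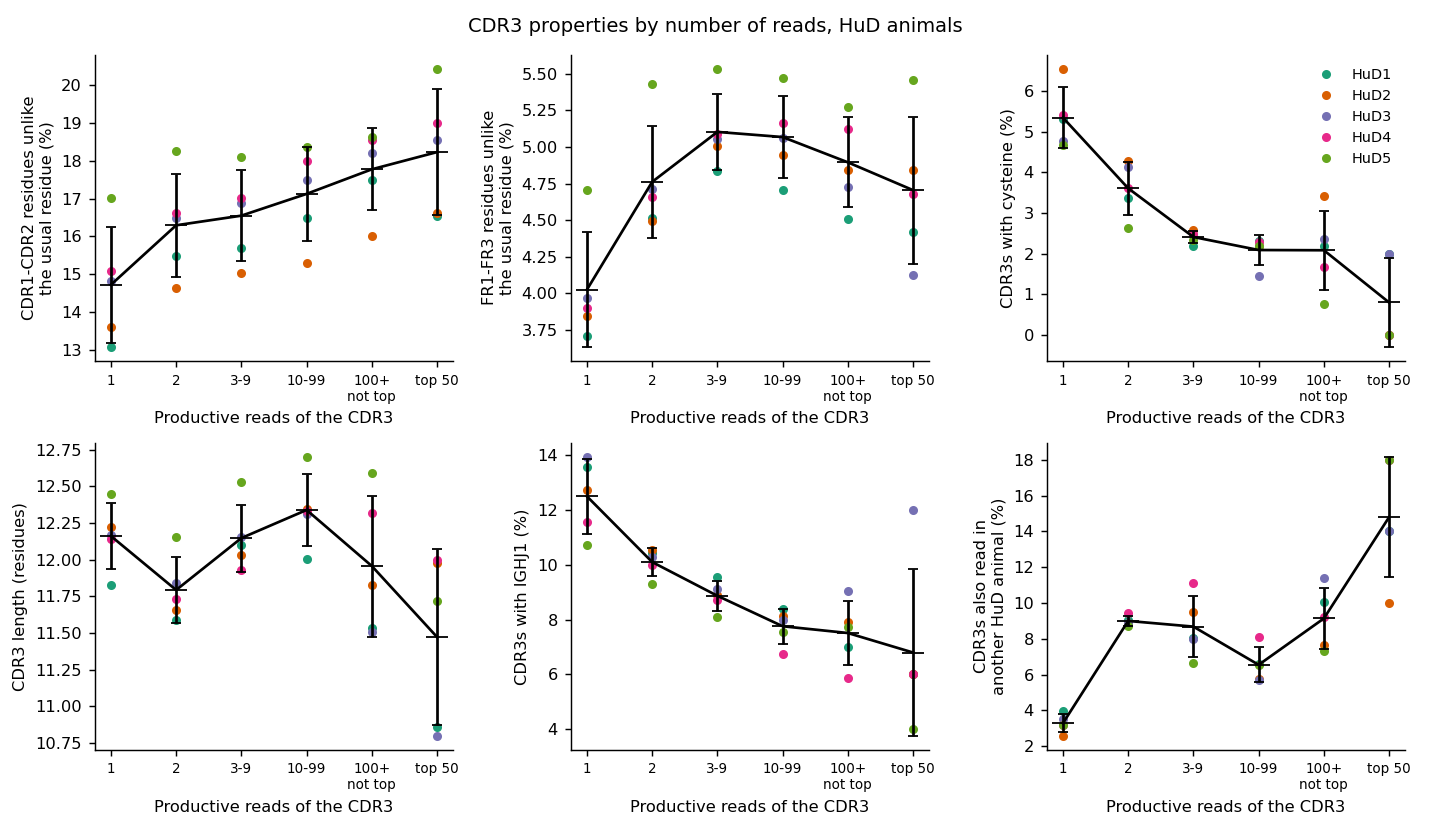
CDR3s of the HuD animals by their number of productive reads (x axis, 6 classes), with points for animals and the black line for the mean and SD of 5 animals. The mean CDR1-CDR2 value is 14.7% at 1 read and 18.2% in the expanded, that of cysteine 5.35% and 0.8%, whereas FR1-FR3 is highest at 3 to 9 reads and CDR3 length has no order.

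Sequencing depth per read differed between the sides. A read of an expanded CDR3 rested on 1.97, 1.54, 2.18, 3.34 and 2.52 sequenced copies in HuD1 to HuD5, and a read of a single-read CDR3 on 1.36, 2.42, 1.41, 1.94 and 1.51. HuD2 ran opposite to the other animals (exact p = 0.25). The share of reads with only 1 copy was 67.1% ± 5.29 (SD, n = 5) on the expanded side and 85.2% ± 3.20 on the single-read side, lower in 5 of 5 animals. When only the single-read side was limited to reads with 1 copy, hydropathy changed direction (−0.02) and no other value above did. The expanded side kept its reads with more copies there. The part of the copy number in the differences was therefore not tested.

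Finally, the same sides were built in the 5 DNP animals to ask which differences were particular to HuD immunization. The CDR1-CDR2 difference was 3.03 to 3.91 points in the HuD animals and −1.29 to 3.00 in the DNP animals, without overlap. Each group was here compared with the usual residues of the other group, so the 2 references were not the same. The gap of 2.58 points had an exact p of 0.00794 over the 252 choices of 5 animals, the smallest possible, but an adjusted p of 0.119 over 15 measures. Compared within the same IGHV gene, the gap was 0.716 points (exact p = 0.421). With each group compared with its own usual residues, the gap was 2.28 points (exact p = 0.0556). The share of expanded CDR3s read in another animal of the group was 10% to 18% in HuD and 16% to 78% in DNP animals, and its excess over single-read CDR3s was 31.1 points smaller in the HuD animals (exact p = 0.0238, adjusted p = 0.179). This gap was −15.1 points when at least 2 reads in the other animal were required (exact p = 0.0794) and −16.5 with the 200 most read CDR3s (exact p = 0.0238), and pairing the animals by number gave an exact p of 0.0625. Pairs of CDR3 and tag seen in another library fell on 67 expanded CDR3s of the DNP and 26 of the HuD animals. Their part in the sharing gap was not tested. None of the 15 measures passed after adjustment, and 2 did before it. Over all 10 animals, 11 of the 15 measures had an adjusted p under 0.05 by exact sign-flip permutation. Among these is the neighbour share, which compares own with other animals within the single-read CDR3s and not the 2 sides. Its direction was largely given beforehand.

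**Figure D5:**
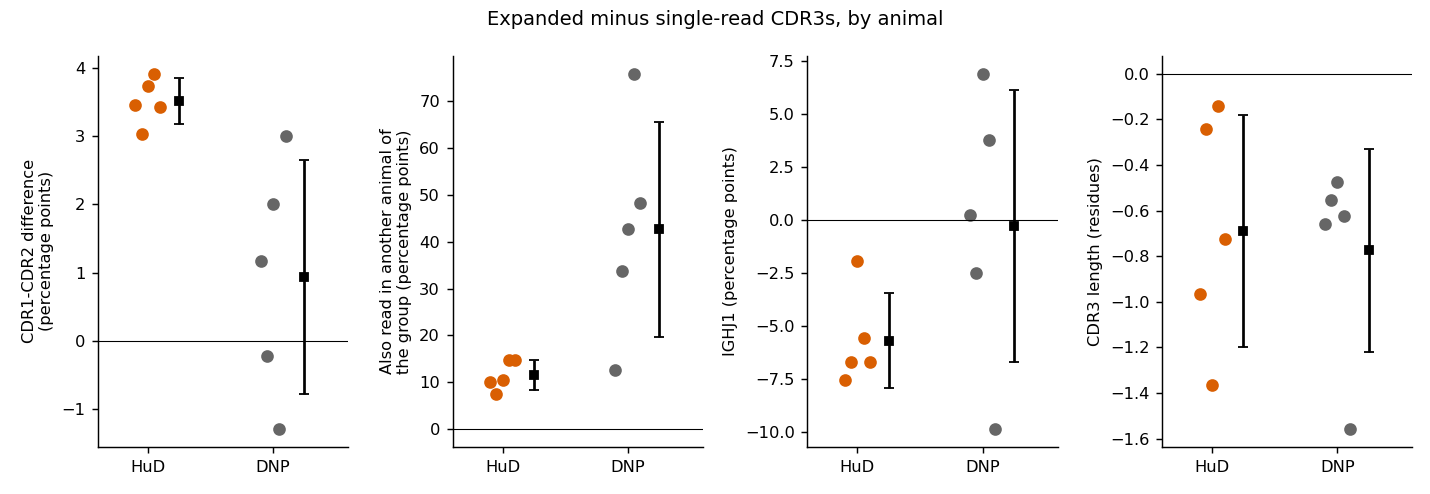
Expanded minus single-read difference in each HuD (orange) and DNP (grey) animal for CDR1-CDR2 residues unlike the usual residue, CDR3s also read in another animal of the group, IGHJ1 and CDR3 length, with mean and SD in black. The CDR1-CDR2 points of the groups do not overlap, those of the other panels do.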

How the data were processed

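Productive lines of the 10 deposited annotation tables were used, 1 line as 1 read. The authors merged read pairs with PEAR, collapsed tags with MIGEC at a minimum UMI count of 1 and annotated with High-VQuest. Their versions were not stated. The deposited counts of sequenced copies per read served as an alternative unit. Members, gene and residue lists were chosen with earlier results of these data known. Each CDR3 took the first named IGHV, IGHD and IGHJ gene of most of its reads.

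IGHV and IGHD genes with at least 10 CDR3s were tested with edgeR 4.0.16 (quasi-likelihood, animal as block, no scaling), residues with limma 3.58.1, both with Benjamini-Hochberg adjustment at 0.05. Other values were tested by two-sided exact sign-flip permutation over animals, or over the 252 choices of 5 animals. Usual residues needed 20 CDR3s per gene in the group they were taken from, DNP for HuD animals and HuD for DNP animals. DESeq2 1.42.0 was run with minmu at 1e-06, because its default lower bound on expected counts is too high for genes with few of 50 CDR3s. The fits were checked on simulated data. Python 3.11.15, pandas 2.3.3, numpy 2.4.6 and Biopython 1.88 were used. Named were the 10 IGHV genes with most expanded CDR3s, genes past the threshold, all IGHJ genes, residue groups, leading, limiting and shared CDR3s.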

Additional observations from a re-analysis of the deposited data

Results flagged for a closer look

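Of 43 sets of 5 values checked, 4 held an animal far from the others, where chance flags about 1 in 20. IGHJ1 made up 12% of the expanded CDR3s of HuD3, and the nearest animals stood at 6%. The FR1-FR3 difference from the usual residue was 4.70% in the single-read CDR3s of HuD5, against 3.97% in the nearest animal. In HuD2, 76.5% of the reads of expanded CDR3s had 1 copy, against 66.2% in the nearest animal, and the expanded minus single-read difference of this share was −4.07 points, against −18.4 in the nearest. Between HuD and DNP animals, the CDR1-CDR2 difference of the sides differed by 2.58 points (exact permutation p = 0.00794, adjusted p = 0.119). The excess of expanded CDR3s read in another animal of the same group differed by −31.1 points (exact permutation p = 0.0238, adjusted p = 0.179). Neither passed after adjustment over 15 measures.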

How the results depend on the processing

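The 5 HuD animals alone cannot pass 0.05 in the paired exact test. Over the alternatives, the HuD differences kept their direction for CDR1-CDR2 (2.60 to 4.29), CDR3 length, net charge, cysteine, IGHJ1, IGHJ3, IGHJ4, sharing, neighbours and copies. The FR1-FR3 difference turned to −0.17 in HuD and −0.11 over 10 animals with the most frequent variant, where that of CDR1-CDR2 over 10 animals was 0.78 (exact p = 0.352). With single-read CDR3s of at least 2 copies the latter was 0.83 (exact p = 0.311), IGHJ2 turned to −0.94 (−0.53 when the sides were formed by copies in place of reads), 4 IGHV genes passed as more and 2 as less frequent, 1 IGHD gene as less frequent, and 7 residues as more and 6 as less frequent. Hydropathy turned to −0.021 with 1 copy, −0.012 with the 20 most read and −0.0051 by copies. With the 200 most read, 1 IGHV gene and 1 residue passed as more and 2 residues as less frequent. Where at least 90% of the reads named 1 gene, 2 IGHV genes passed as more frequent, and with TMM 1 as less. The cause of these shifts was not tested.

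Without the replicate block, the 2 sides of an animal were treated as independent samples, which they are not, so the p values that follow carry no weight. Values were the same, at exact permutation p = 0.0238 for IGHJ1 (−5.70) and CDR1-CDR2 (3.51), 0.0317 for length (−0.69) and charge (0.26), and 0.00794 for IGHJ3 (9.91), cysteine (−4.55), sharing with HuD (11.5) and DNP (6.88), neighbours (2.73) and 1-copy reads (−18.1). Pairing HuD and DNP animals by number as a replicate block gave p = 0.0625 for CDR1-CDR2 (2.58) and sharing (−31.1), by exact permutation. Same-numbered animals correlated at −0.098 to 0.30, and 1 of 5 HuD animals correlated best with its own number, so animals of the groups share only a number. The CDR1-CDR2 gap to DNP was 0.72 within gene and 2.28 with each group's own usual residues, and the sharing gap −15.1 with at least 2 reads.

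Single genes turned sign as follows, in log2 fold change. IGHV5-25 stood at −0.072 (20 most read), −0.090 (200), −0.37 (2 copies), −1.56 (90% of reads), −0.79 (TMM) and −0.027 (DESeq2). IGHV5-29 stood at −0.27 (2 copies) and −0.73 (TMM), IGHV5-31 at −0.060 (200), −0.11 (90%) and −0.58 (TMM), IGHV5-22 at −0.83 (20), −0.093 (by copies), −0.73 (90%) and −0.79 (TMM), IGHV5S13 at −0.49 (200), −0.21 (2 copies) and −0.62 (TMM), and IGHV5-7 at 0.059 (20). Leaving out 1 animal gave −0.27 to 0.18 for IGHV5-25, −0.26 to 0.25 for IGHV5-29, −0.15 to 0.23 for IGHV5-22, −0.32 to 0.38 for IGHV5S13, −0.094 to 1.71 for IGHV2-13, −0.52 to 4.80 points for IGHJ2, −0.0023 to 0.0715 for hydropathy, 0 to 1 IGHV genes more frequent, and 11 to 12 measures over all animals. No use of 1 IGHV gene by all reads could be compared, as 0 expanded CDR3s had it.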

Other observations

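Single-read CDR3s were not uniform. Of the 105100, 16467 rested on a read with at least 2 sequenced copies (14.8% ± 3.20 per animal, SD, n = 5) and 88633 on 1 copy. Those with at least 2 copies held 5.62 ± 1.83 copies on average. Cysteine was present in 13.4% ± 3.64 of them, against 3.85% ± 0.481 of those with 1 copy. Proline made up 0.952% ± 0.190 of their residues against 3.22% ± 0.138, threonine 4.65% ± 0.621 against 7.30% ± 0.431, and tyrosine 19.7% ± 0.719 against 16.9% ± 0.267. Their mean hydropathy was −1.10 ± 0.0563 against −0.723 ± 0.0235.

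IGHV5-20 was assigned to 19.8% ± 5.69 and IGHV5-7 to 13.6% ± 2.52 of the single-read CDR3s with at least 2 copies, against 7.05% ± 1.15 and 5.49% ± 0.817 of those with 1 copy. In FR1-FR3, 2.72% ± 0.392 and 4.26% ± 0.430 of the residues differed from the usual residue, and 1.93% ± 0.686 and 3.53% ± 0.433 were read in another HuD animal. These values were looked at after the data were seen, and no test was made.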
